A study of Mus musculus with 57 samples.

Results

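The 33 genes described here mark excitatory neurons of different layers of the cerebral cortex, and were chosen by name as a fixed list of 8 upper-layer, 4 middle-layer, 9 layer 5 and 12 layer 6 or 6b markers. All 33 were found in the expression table and all had a mean normalized count of at least 10, the minimum for testing, which 16659 genes passed. The samples were prefrontal cortex from 57 mice of the C57BL/6N strain, taken on postnatal day 25 for RNA sequencing, to ask how heterozygosity for Shank2, a gene for a postsynaptic scaffold of excitatory synapses, and early drug exposure alter expression. The mice were heterozygous for Shank2 (HT, n = 30) or wild type (WT, n = 27), and from day 3 to 24 their mothers' milk had carried fluoxetine (an antidepressant that blocks serotonin reuptake), lithium (used against mania) or only the vehicle. The HT arms held 10 libraries each (5 females and 5 males), and the WT arms held 8 under vehicle (4 and 4), 10 under fluoxetine (5 and 5) and 9 under lithium (4 females and 5 males). The labels give neither the deleted part of Shank2 nor the litters. The nursing mother carried the drug to every pup, so the p-values rest on the spread among these libraries alone. A difference by drug therefore cannot be told apart from a difference between litters.

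The cortex is built of neuronal layers that arise in order, the deep layers first. Upper-layer neurons (layers 2 and 3) project mainly to other cortical areas, layer 4 neurons receive thalamic input, layer 5 neurons project to the striatum, brainstem and spinal cord, and layer 6 neurons project to the thalamus. Layer 6b is a thin lower layer that remains from the subplate. The medial prefrontal cortex of rodents has no distinct layer 4. In bulk tissue, fewer cells of a layer and less RNA per cell cannot be told apart.

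Shank2, the check of the genotype labels, ran from 3877 to 5006 in the HT libraries and from 6762 to 11791 in the WT libraries, so that the genotypes did not overlap (log2 difference -1.17 ± 0.035, SE; limma adjusted p = 6.52e-32). Normalized counts summed to 30.4 to 33.2 M per library (M, mega), and 21509 to 23264 genes lay above 0. Markers of projection neurons of the striatum, a region below the cortex, separated the libraries. Of 18 striatal genes, all but Ido1 passed the minimum for testing. The mean log2 deviation of the tested ones lay between 0.89 and 2.43 in 15 libraries and at 0.19 or below in the other 42. The 15 comprised 3 of 8 WT vehicle, 4 of 10 WT fluoxetine, 3 of 9 WT lithium, 0 of 10 HT vehicle, 3 of 10 HT fluoxetine and 2 of 10 HT lithium libraries. The dopamine receptor gene Drd2 had a median of 264 in the 15 and 29.1 in the 42. Of 7 olfactory bulb genes, all but Barhl2 were tested, and the mean of the tested ones also varied widely, from -2.38 to 3.24. WT vehicle male 2 stood apart by its trend with transcript length, -0.33, where the other libraries had -0.15 to 0.17. The trend also differed by drug, being negative in most vehicle libraries and positive in most fluoxetine and lithium libraries. It ran from -0.33 to 0.054 under vehicle, from -0.13 to 0.14 under fluoxetine and from -0.12 to 0.17 under lithium. Its part in the drug comparisons was not tested beyond the fits with a length term given below.

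The levels of the 33 markers spanned a wide range and did not follow the layer order. Per kb of longest annotated transcript, the highest mean normalized count was that of Pcp4, a layer 5 marker that encodes a calmodulin-binding peptide (8569 per kb). Mef2c, an activity-dependent transcription factor gene of upper and other layers (3985 per kb), and Lamp5, a membrane protein gene of layer 2 and 3 neurons and some interneurons (2715 per kb), followed. Sulf2, Tbr1, Crym, Rprm and Rasgrf2 lay between 915 and 1077 per kb. The lowest were the middle-layer genes Scnn1a, an epithelial sodium channel subunit (20.7 per kb), and Rspo1, a secreted activator of Wnt signalling (26.6 per kb), and the layer 6b gene Nxph4, a neurexophilin (52.4 per kb). The other 2 middle-layer markers were higher, with 147 per kb for the nuclear receptor Rorb and 259 per kb for the scaffold gene Whrn.

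**Figure D1:**
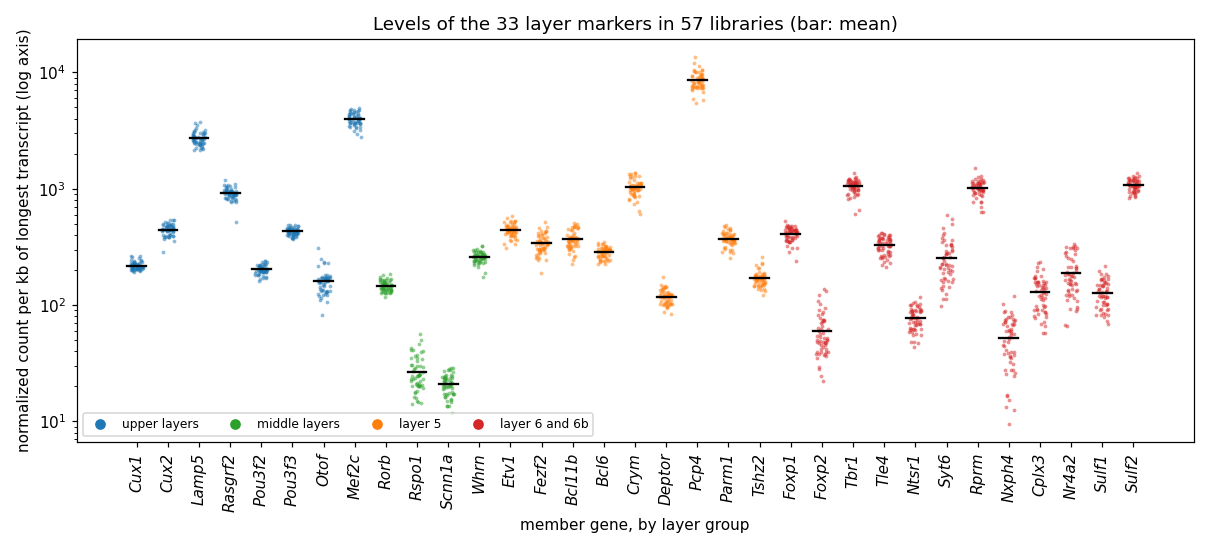
Normalized counts per kb of longest transcript (vertical log axis) of the 33 markers, ordered by layer group; each dot is 1 of 57 libraries and the bar is the mean. Pcp4 sits highest at 8569 per kb, and Rspo1 and Scnn1a lie lowest; Nxph4, Nr4a2, Foxp2, Syt6 and Cplx3 spread most.

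The members also differed in how much they varied between mice of the same group. The SD of the log2 value within groups had a median of 0.19 over the 33 genes, against 0.17 over all genes tested. It was smallest for the homeobox gene Cux1 (0.089) and largest for Nxph4 (0.80). The next in size were all markers of layer 6 or 6b, namely Nr4a2 (0.56), a nuclear receptor of 6b and claustral neurons, Foxp2 (0.53), a forkhead factor, Syt6 (0.53), a synaptotagmin, and Cplx3 (0.50), a complexin of 6b. A difference in these 5 genes would have to be larger to pass the test than one in Cux1 or Pou3f3 (0.098).

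The promoters of the 4 members that differed between the genotypes over all treatments are shown as the 250 bases that end just before each gene's annotated start. RefSeq (GRCm38.p6) promoters were at hand for 26 of the 33 members, and 1 start was taken per gene, the most upstream. The 250 bases before the start were searched on both strands for AGGTGT (the T-box core bound by factors such as Tbr1), TGTTTAC (forkhead), ATGCAAAT (octamer, POU factors), AAAGGTCA (the Nr4a element), CAGATG (an E-box), TGACGTCA (the cAMP response element), GGGCGG (the GC box) and TATAAA (the TATA box). Capitals mark a match, and the sequences run 5′ to 3′ on the strand of the gene.
Mef2c, plus strand, chr13:83503784-83504033: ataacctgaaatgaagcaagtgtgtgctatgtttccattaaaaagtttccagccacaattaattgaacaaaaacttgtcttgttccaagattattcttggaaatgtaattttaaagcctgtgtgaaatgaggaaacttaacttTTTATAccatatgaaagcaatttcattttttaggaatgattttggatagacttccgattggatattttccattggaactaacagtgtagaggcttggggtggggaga
Whrn, minus strand, chr4:63495992-63496241: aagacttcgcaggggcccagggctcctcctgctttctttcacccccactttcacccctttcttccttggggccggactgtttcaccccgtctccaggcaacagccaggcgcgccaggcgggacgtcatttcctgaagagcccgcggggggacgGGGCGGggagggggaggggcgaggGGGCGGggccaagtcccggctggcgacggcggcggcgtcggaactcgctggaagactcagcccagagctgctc
Pcp4, plus strand, chr16:96467356-96467605: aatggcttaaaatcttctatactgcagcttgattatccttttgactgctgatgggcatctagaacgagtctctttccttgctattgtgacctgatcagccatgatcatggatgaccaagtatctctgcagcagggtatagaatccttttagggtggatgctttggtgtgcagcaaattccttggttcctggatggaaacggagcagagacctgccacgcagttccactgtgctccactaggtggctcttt
Ntsr1, plus strand, chr2:180499726-180499975: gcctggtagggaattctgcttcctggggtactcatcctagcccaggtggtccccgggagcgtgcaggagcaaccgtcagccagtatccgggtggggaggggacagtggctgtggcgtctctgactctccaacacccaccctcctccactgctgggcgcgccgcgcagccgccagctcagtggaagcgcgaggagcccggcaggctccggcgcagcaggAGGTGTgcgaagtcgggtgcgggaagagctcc
The T-box core stood in 2 of the 26 member promoters, those of the layer 6 genes Ntsr1 and Syt6, and in 12.04% of 27025 promoters of the same length. The forkhead letters stood in Cux1 alone (3.06% of all promoters), and those of the TATA box in Mef2c, Nr4a2 and Sulf2 (12.98%). Those of the GC box stood in 14 of the 26, Whrn among them (32.96%). A match anywhere in the window on either strand was counted, whatever its distance from the start. The octamer (1.62%), the Nr4a element (1.31%), the E-box (14.5%) and the cAMP response element (1.60%) had no match in these windows. The Pcp4 window held none of the 8 motifs. The 26 member windows had a median GC content of 61.8%, against 52% over all promoters, and the motif counts were not corrected for this.

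Over all treatments, 4 of the 33 markers differed in mean between HT and WT, with overlapping ranges: Mef2c and Ntsr1 rose and Pcp4 and Whrn fell in HT. They belong to 4 different layer groups, and the other 29 markers did not pass. Of all genes tested 3.74% were called in this comparison, at an adjusted p under 0.05. The median log2 difference of the 33 was 0.01, against 0.00085 over all genes tested, and 17 of the 33 were above 0. By layer, 1 of 8 upper-layer genes rose, 1 of 4 middle-layer genes fell, 1 of 9 layer 5 genes fell and 1 of 12 layer 6 genes rose.

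Several lists of markers of other cells lay to the same side with the genotype, though few of their genes were called. The genes of a list were measured in the same libraries, so these counts are not independent results. All 8 oligodendrocyte genes were lower in HT with an unadjusted p under 0.05 (median -0.20), a share that was 18.9% over all genes, and 0 of the 8 passed after adjustment. All 8 astrocyte genes lay below 0 and 2 of them fell. Of the striatal genes 17 of 17 lay below 0 (median -0.26) and of the olfactory bulb genes 6 of 6 (median -0.36), with 0 called in either list. General markers of excitatory neurons lay above 0 in 8 of 8 cases (median 0.07), and 1 of them rose. Summed oligodendrocyte levels ran from 58563 to 159071 in HT and from 73461 to 192318 in WT, summed striatal levels from 13302 to 34317 and from 13294 to 50803, and summed olfactory bulb levels from 527 to 9725 and from 542 to 14613. The medians of these sums in HT and WT were 106583 and 120269, 15831 and 15783, and 1414 and 2328 in the same order. The striatal medians were thus close. No gene of these 3 lists was at 0 in every library of a genotype. With the striatal and olfactory bulb means both as terms in the fit, the same 4 members passed, Pcp4 at -0.29, Mef2c at 0.15, Whrn at -0.15 and Ntsr1 at 0.28 (adjusted p between 4.8e-06 and 0.0165). The part of the oligodendrocyte and astrocyte lists was not tested.

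Pcp4 (ENSMUSG00000090223, chromosome 16, 96467606 to 96525793, GENCODE vM21 on GRCm38) had the largest fall. Its normalized count in WT had a lowest, median and highest value of 4939, 5646 and 8665 under vehicle, 4955, 6007 and 6602 under fluoxetine and 5597, 6408 and 7650 under lithium. In HT these were 3734, 4882 and 5690 under vehicle, 3468, 4999 and 5653 under fluoxetine and 3804, 4755 and 5627 under lithium. The WT libraries were the higher ones under each treatment, and the ranges overlapped under each of them, under lithium only between 5597 and 5627. The means were 4884 ± 546 in HT (SD, n = 30) and 6168 ± 825 in WT (n = 27), a log2 difference of -0.34 ± 0.044 (SE; adjusted p = 9.92e-07). Pcp4 passed in vehicle libraries (-0.33 ± 0.079, adjusted p = 0.0337) and in lithium libraries (-0.40, adjusted p = 0.00766). Under fluoxetine it had -0.28 (adjusted p = 0.112). Pcp4 is also a gene of striatal neurons and was higher in the 15 libraries with striatal markers (median 6024) than in the other 42 (5059). Over the 42 alone the difference was -0.32 (adjusted p = 0.00395), and with the striatal mean as a term in the fit -0.29 (adjusted p = 2.4e-06). The highest WT vehicle value, 8665, belonged to WT vehicle male 2, without which and without any other single library the adjusted p stayed at or below 2.56e-06.

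Mef2c (chromosome 13, 83504034 to 83667080) rose from 23359 ± 2989 in WT to 26498 ± 2427 in HT. In WT the lowest, median and highest values were 17347, 21892 and 27924 under vehicle, 19505, 23497 and 29683 under fluoxetine and 21212, 23700 and 26362 under lithium. In HT they were 22854, 26840 and 29554 under vehicle, 22518, 25541 and 30512 under fluoxetine and 22606, 27159 and 31009 under lithium. The WT vehicle libraries held the lowest values, and the genotypes overlapped under every treatment. The log2 difference was 0.19 ± 0.037 (adjusted p = 0.000788) over all treatments and 0.30 ± 0.066 (adjusted p = 0.023) under vehicle. The vehicle call was lost without WT vehicle male 2 or without HT vehicle female 5, with an adjusted p of at most 0.0642.

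Ntsr1, a neurotensin receptor gene whose promoter drives a widely used reporter of layer 6 neurons that project to the thalamus (chromosome 2, 180499976 to 180544980), rose from 279 ± 66.3 in WT to 322 ± 59.7 in HT. The log2 difference was 0.24 ± 0.059 (adjusted p = 0.0113). Whrn, which encodes whirlin, a scaffold of hair cells and axons (chromosome 4, 63414910 to 63495991), fell from 1105 ± 94.5 to 996 ± 100 (-0.15 ± 0.036, adjusted p = 0.00837). The WT libraries ran from 925 to 1305 and the HT libraries from 709 to 1152, so most of both ranges was shared. The 3 calls of Mef2c, Ntsr1 and Whrn were each kept with any single library left out. Over the 42 libraries with low striatal markers the values were 0.16, 0.27 and -0.20, with adjusted p = 0.16, 0.118 and 0.0617, and 75 genes in all were called in place of 623.

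Within single treatments, fewer members passed. Under vehicle, 2 of 33 were called, Mef2c and Pcp4, where 0.762% of all genes were. The striatal genes were lower in the HT vehicle libraries: 13 of 17 tested had an unadjusted p under 0.05 and all 17 lay below 0, with a median of -0.68 and 0 passing after adjustment. Their summed level ran from 14444 to 16787 in HT vehicle and from 13653 to 50803 in WT vehicle libraries, with medians of 15646 and 16158. None of the 18 was at 0 in every library. With the striatal mean as a term, Mef2c had 0.24 (adjusted p = 0.0637) and Pcp4 -0.22 (adjusted p = 0.108) under vehicle, and Bcl11b and Ntsr1 were called in their place. Pcp4 under vehicle was also lost without any 1 of 9 of the 18 libraries (adjusted p at most 0.113): HT vehicle females 1, 2 and 5, HT vehicle males 1, 2 and 3, WT vehicle females 3 and 4, and WT vehicle male 2. Without WT vehicle male 1, 4 members were called under vehicle, these 2 with Whrn (-0.23) and Ntsr1 (0.40). Under fluoxetine 0 of 33 members were called by limma, with 0.222% of all genes called; 4 members had an unadjusted p under 0.05, as did 10.5% of all genes. Under lithium Pcp4 was the 1 member called, where 0.114% of all genes were; that call was lost over the 42 libraries (-0.39, adjusted p = 0.296) and without WT lithium female 1 (adjusted p = 0.0529).

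**Figure D2:**
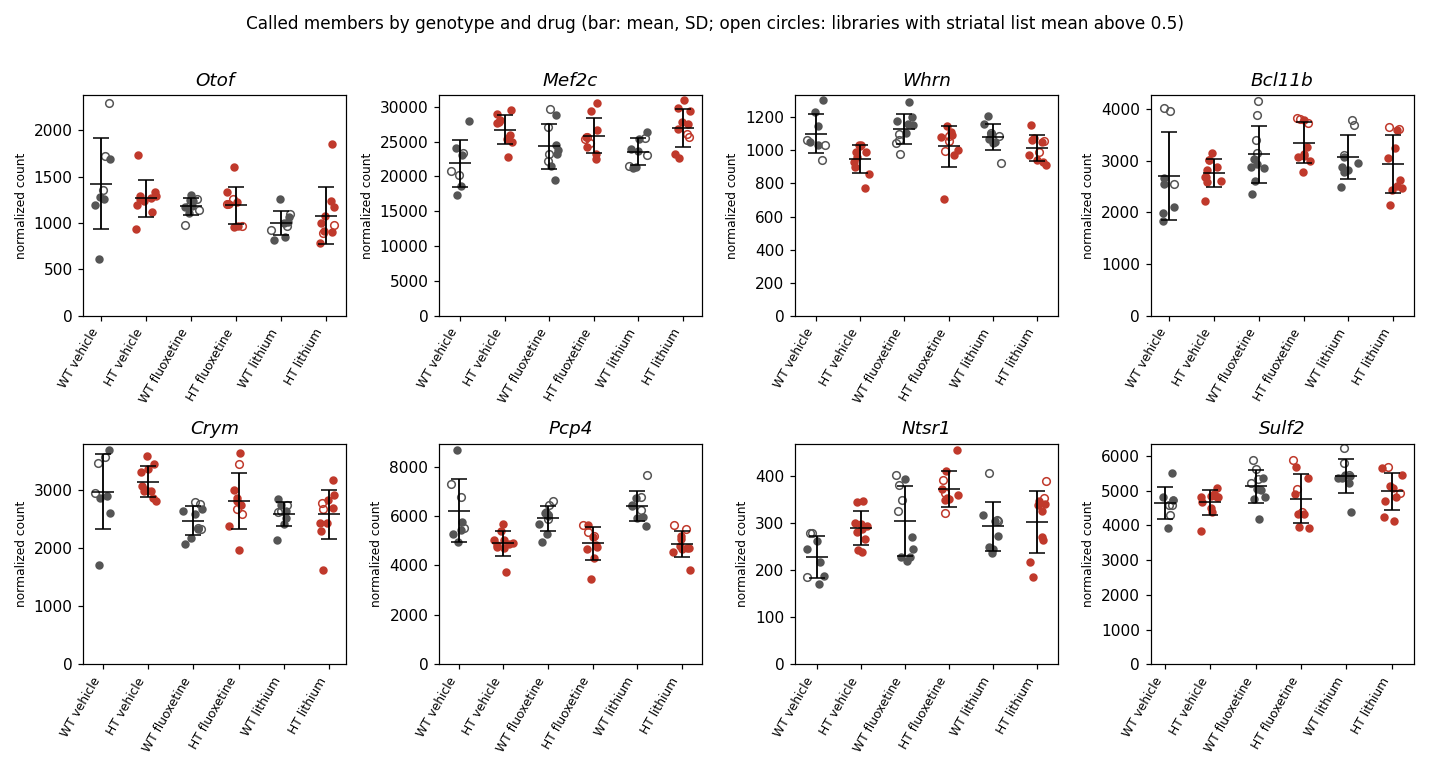
Normalized counts (vertical axes, from 0) of the 8 markers called in at least 1 comparison, by genotype and drug; dots are libraries (grey WT, red HT, open circles the 15 with a striatal mean above 0.5) and bars give mean and SD. Pcp4 lies lower in HT under each treatment, with means of 4890.0, 4900.0 and 4863 against 6206, 5915 and 6416 in WT.

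Fluoxetine, compared with vehicle over both genotypes, came with a rise of Ntsr1 and Bcl11b. These 2 of the 33 members were called, where 4.75% of all genes were. The other 31 did not pass, and 25 of the 33 lay above 0 with a median of 0.07, against 0.0055 over all genes tested. Of the 12 layer 6 genes 11 lay above 0 (median 0.13), and of the 8 upper-layer genes 4 (median 0.0078). The olfactory bulb and striatal genes moved with this pattern: 6 of 6 tested olfactory bulb genes were above 0 (median 0.59) and 15 of 17 striatal genes (median 0.22), with 0 called in either list. Summed olfactory bulb levels had a median of 998 and 2490 in HT and WT vehicle libraries and 3319 and 3204 in HT and WT fluoxetine libraries. Their part in the result was not tested beyond the terms given below.

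Ntsr1 had the smallest adjusted p of the members for fluoxetine against vehicle. Its lowest, median and highest values were 171, 231 and 280 in WT vehicle, 221, 299 and 404 in WT fluoxetine, 239, 291 and 347 in HT vehicle and 321, 362 and 455 in HT fluoxetine libraries. The fluoxetine libraries were the higher ones in both genotypes, and the ranges overlapped between 321 and 347 in HT and between 221 and 280 in WT. The mean was 263 ± 50.1 under vehicle (n = 18) and 339 ± 67.3 under fluoxetine (n = 20), a log2 difference of 0.38 ± 0.072 (adjusted p = 0.000863). The call was kept with every library left out in turn (adjusted p at most 0.00293) and over the 42 libraries (0.45, adjusted p = 0.0492). With both the striatal and the olfactory bulb mean as terms the value was 0.35 (adjusted p = 0.00243).

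Bcl11b, which encodes the transcription factor Ctip2 of layer 5 neurons that project below the cortex and also marks striatal neurons, passed narrowly. It had 2738 ± 579 under vehicle and 3236 ± 481 under fluoxetine (log2 difference 0.26 ± 0.080, adjusted p = 0.0481). The vehicle libraries ran from 1825 to 4025 and the fluoxetine libraries from 2360 to 4154. The 15 libraries with striatal markers had a median of 3719 and the other 42 of 2818, and over the 42 the value was 0.26 (adjusted p = 0.202). With the length term it was 0.15 (adjusted p = 0.512), and with the mean of other layer 6 genes as a term 0.19 (adjusted p = 0.0519), where Crym was called instead. The call was lost without any 1 of 25 of the 38 libraries, with an adjusted p of at most 0.104. It was kept without HT fluoxetine females 2 and 4, HT fluoxetine males 2 and 3, HT vehicle female 5, HT vehicle males 2 and 4, WT fluoxetine female 5, WT fluoxetine male 2, WT vehicle females 1 and 4 and WT vehicle males 1 and 3, each left out alone.

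The number of members called under fluoxetine rose to 8 without WT vehicle female 1, the library with the highest olfactory bulb mean. Besides Ntsr1 (0.40) and Bcl11b (0.26), these were Syt6 (0.55), Tshz2 (0.18) and Etv1 (0.18), which were higher, and Crym (-0.26), Rorb (-0.16) and Pou3f3 (-0.10), which were lower, with adjusted p between 0.00047 and 0.0469. Of all genes, 1288 were then called in place of 791.

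Several members that did not pass had large values under fluoxetine. Nxph4 had 76.0 ± 48.8 under vehicle and 104 ± 31.6 under fluoxetine (0.62 ± 0.25, adjusted p = 0.153), and Syt6 had 1026 ± 544 and 1348 ± 425 (0.46 ± 0.17, adjusted p = 0.108). Both spread widely within arms, Nxph4 from 22.3 to 199 in WT vehicle libraries. Of all members, they also rose most with the olfactory bulb mean (0.38 and 0.36 log2 per unit). Summed olfactory bulb levels had a median of 1954 under vehicle and 3319 under fluoxetine. With the striatal and olfactory bulb means as terms neither gene was called, and the part of the olfactory bulb genes was not tested further. Among the smallest p-values of their layers were those of Rorb, with 1433 ± 149 and 1308 ± 142 (-0.13 ± 0.043, adjusted p = 0.069), and the POU factor gene Pou3f3, with 3262 ± 223 and 3062 ± 194 (-0.09 ± 0.032, adjusted p = 0.0952). Pou3f3 overlaps a tested gene on the same strand, so its count may hold reads of both.

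Within each genotype, fluoxetine gave fewer calls. In WT, Ntsr1 was the 1 member called (0.40 ± 0.11, adjusted p = 0.0491), where 0.84% of all genes were. The call was lost over the 42 libraries (0.52, adjusted p = 0.638), with a term for transcript length (0.35, adjusted p = 0.461) and without any 1 of 14 of the 18 libraries (adjusted p at most 0.146), all but WT fluoxetine female 3, WT vehicle females 1 and 4 and WT vehicle male 1. In HT 0 of 33 members were called by limma, where 0.33% of all genes were, and 7 had an unadjusted p under 0.05, as did 14.6% of all genes; Ntsr1 had 0.36 ± 0.099 (adjusted p = 0.0729). For the difference of the fluoxetine effect between the genotypes, 0 of 33 members and 0% of all genes were called by limma; 1 member, Mef2c, and 1285 genes (7.71%) had a raw p below 0.05. The difference for Ntsr1 was -0.03 ± 0.14 on the log2 scale.

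**Figure D3:**
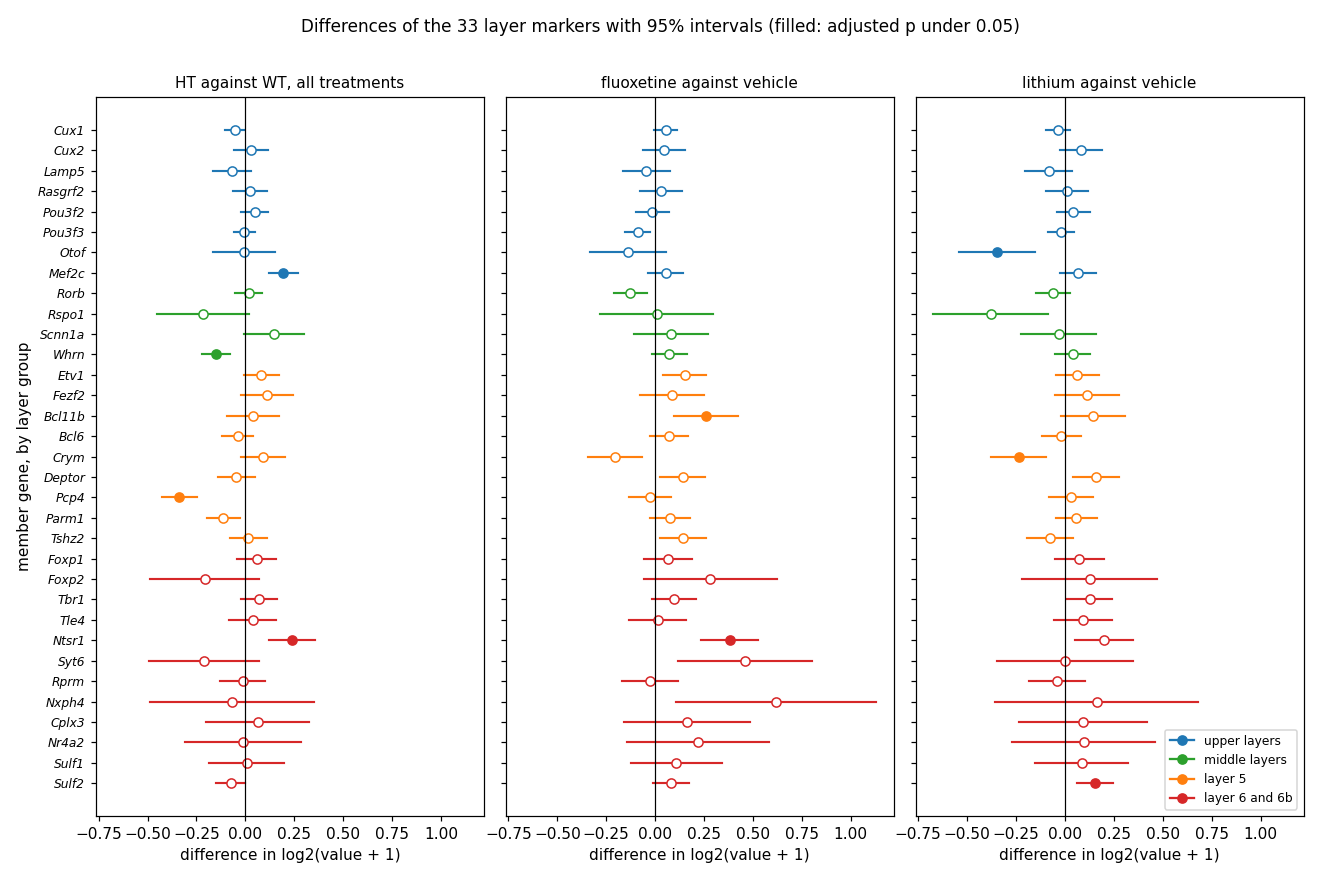
Differences in log2(value + 1) of the 33 markers with 95% intervals (horizontal axis) for HT against WT over all treatments and for each drug against vehicle over both genotypes; filled symbols have an adjusted p under 0.05 and colours give the layer group. Pcp4 is at -0.34 for genotype, Ntsr1 at 0.38 for fluoxetine and Otof at -0.35 for lithium; the intervals of Nxph4, Syt6, Foxp2, Cplx3 and Nr4a2 are the widest.

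Lithium, compared with vehicle over both genotypes, came with a fall of Otof and Crym and a rise of Sulf2. These 3 of 33 members were called, where 13.3% of all genes were, and 30 did not pass. The median of the 33 was 0.06, against -0.001 over all genes tested. The 6 olfactory bulb genes all lay below 0 (median -0.41), as did 14 of 17 striatal genes (median -0.09), with 0 called in either list. Summed olfactory bulb levels ran from 542 to 14613 under vehicle and from 527 to 9725 under lithium, and summed striatal levels from 13653 to 50803 and from 14077 to 27365. The medians under vehicle and lithium were 1954 and 1055 for the olfactory bulb sums and 15646 and 15783 for the striatal sums. With both list means as terms 7 members were called, Otof, Crym and Sulf2 with Bcl11b, Deptor, Ntsr1 and Syt6. Otof, which encodes otoferlin, a calcium sensor of vesicle fusion that marks layer 2 and 3 neurons (chromosome 5, 30367062 to 30461932), had 1335 ± 357 under vehicle (n = 18) and 1041 ± 236 under lithium (n = 19). Its log2 difference was -0.35 ± 0.097 (adjusted p = 0.0132). The lowest, median and highest values were 609, 1315 and 2294 in WT vehicle, 813, 1000.01 and 1262 in WT lithium, 931, 1265 and 1731 in HT vehicle and 787, 989 and 1854 in HT lithium libraries. The medians were lower under lithium in both genotypes, and the widest range was that of the WT vehicle libraries.

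Crym, a thyroid hormone-binding protein gene of layer 5 (chromosome 7, 120186380 to 120202111), fell from 3065 ± 462 under vehicle to 2585 ± 330 under lithium (-0.24 ± 0.070, adjusted p = 0.0192). Under fluoxetine it had 2641 ± 413, a log2 difference of -0.21 ± 0.069 that did not pass (adjusted p = 0.0696); both comparisons share the vehicle libraries. Sulf2, a heparan sulfate 6-O-endosulfatase of the cell surface (chromosome 2, 166073089 to 166155663), rose from 4654 ± 387 to 5180 ± 547 (0.15 ± 0.046, adjusted p = 0.0204). It overlaps Ncoa3 on the other strand. The library kit keeps the strand, but whether reads were counted by strand is not stated in the labels. Whether the Sulf2 count holds reads of Ncoa3 is therefore unknown. The 3 calls were kept with any single library left out and lost with a term for transcript length, at -0.41, -0.08 and 0.11 for Otof, Crym and Sulf2 (adjusted p = 0.0903, 0.681 and 0.349). They were also lost over the 42 libraries, at -0.24, -0.17 and 0.10 (adjusted p = 0.262, 0.249 and 0.306), where 563 genes in all were called in place of 2216. Rspo1 had 52.3 ± 17.7 under vehicle and 40.1 ± 11.1 under lithium (-0.38 ± 0.15, adjusted p = 0.0739), and over the 42 libraries -0.62 (adjusted p = 0.0169). Ntsr1 had 0.20 ± 0.073 (adjusted p = 0.0606) and Deptor 0.16 ± 0.059 (adjusted p = 0.0662) under lithium. The called members were 5 without HT lithium female 1 or WT vehicle female 1, where Ntsr1 and Deptor joined the 3, and without WT vehicle male 1, where Ntsr1 and Rspo1 did.

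In WT, Otof fell under lithium (-0.44, adjusted p = 0.0453) and Ntsr1 (0.36, adjusted p = 0.0288) and Sulf2 (0.22, adjusted p = 0.0362) rose, so that 3 of 33 members were called, where 8.53% of all genes were. None of the 3 passed over the 42 libraries, where Otof had -0.23, Ntsr1 0.33 and Sulf2 0.14 (adjusted p = 0.578, 0.208 and 0.452), or with the length term, where they had -0.51, 0.30 and 0.18 (adjusted p = 0.118, 0.229 and 0.269). Otof was also lost with the mean of other layer 6 genes as a term (-0.40, adjusted p = 0.064). Of 17 libraries left out in turn, 12 ended the call of Otof, 6 that of Ntsr1 and 8 that of Sulf2, with adjusted p of at most 0.149, 0.0776 and 0.0935. The Otof call was kept without WT lithium female 2, WT lithium male 1, WT vehicle females 1 and 2 and WT vehicle male 2. The Ntsr1 call was lost without WT lithium females 1 and 4, WT lithium male 4, WT vehicle females 2 and 3 and WT vehicle male 4. The Sulf2 call was lost without WT lithium females 1, 3 and 4, WT lithium males 3 and 4, WT vehicle females 1 and 3 and WT vehicle male 2. Without WT vehicle male 1 the called members were 4, Rspo1 (-0.75), Bcl11b (0.33), Ntsr1 (0.41) and Sulf2 (0.21). In HT 0 members were called by limma, where 0.888% of all genes were, and Crym alone had an unadjusted p under 0.05 (-0.30, adjusted p = 0.127), against 12.8% of all genes. The lithium effect did not pass as differing between the genotypes for any member or gene by limma (0%), with 3 members and 1218 genes (7.31%) at a raw p below 0.05.

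Sex and its combination with genotype gave no member past the threshold. Between males and females 0 of 33 members were called by limma, where 0.108% of all genes were, and 0 had an unadjusted p under 0.05, against 5.36% of all genes. For the genotype effect in males minus that in females, 0 members were called, where 0.588% of all genes were, and 7 had an unadjusted p under 0.05, where 18.7% of all genes did. The 7 were all above 0: Rasgrf2, a Ras exchange factor of layer 2 and 3, Mef2c, the mucin-like gene Parm1, the forkhead gene Foxp1, Foxp2, the corepressor Tle4 and Ntsr1. Mef2c had the smallest adjusted p (0.0698) with a difference of 0.25 ± 0.074. Without WT vehicle male 1, 3 members were called, Mef2c (0.25, adjusted p = 0.0438), Foxp1 (0.36, adjusted p = 0.0223) and Foxp2 (0.83, adjusted p = 0.0419). Without WT vehicle male 4 the 2 members called were Mef2c (0.28) and Foxp1 (0.34), and without HT lithium female 4 Mef2c (0.27) was the 1 called. In the same comparison 17 of 17 striatal genes lay above 0 (median 0.54) and 6 of 6 olfactory bulb genes below 0 (median -1.07), with 0 called in either list. Summed striatal levels had medians of 23085 in WT females, 15434 in WT males, 15836 in HT females and 15826 in HT males. Summed olfactory bulb levels had medians of 1610.0, 2490.1, 1985 and 975 in the same order. With both list means as terms 0 members passed, and 1 gene in all was called in place of 98. For Mef2c the vehicle means were 20020 ± 2912 and 27364 ± 1699 in WT and HT males, and 23765 ± 3001 and 25990 ± 2388 in WT and HT females.

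Other layer markers, from a fixed list of 26 tested genes that holds none of the 33, gave calls in both directions. Over all treatments HT had lower Pamr1 of layer 5 (-0.27, adjusted p = 1.28e-06), Endou of the middle layers (-0.42, adjusted p = 0.00913) and Plcxd2 of the upper layers (-0.19, adjusted p = 0.000899), and higher Matn2 (0.27, adjusted p = 0.00954) and the relaxin receptor gene Rxfp1 of layer 6 (0.22, adjusted p = 0.00649). By layer, 1 of 10 upper genes rose and 1 fell, 1 of 4 middle genes fell, 1 of 6 layer 5 genes fell and 1 of 6 layer 6 genes rose. Of all genes tested 3.74% were called in this comparison. Under fluoxetine Unc5d rose (0.19) and Nectin3 (-0.30) and Hsd11b1 (-0.27) fell, where 4.75% of all genes were called. Under lithium Plcxd2 (0.30), Unc5d (0.21) and Rxfp1 (0.23) rose and Qrfpr fell (-0.32), where 13.3% of all genes were called. Of 10 interneuron markers 2 fell in HT, Pvalb (-0.34, adjusted p = 0.00143) and Slc32a1 (-0.21, adjusted p = 0.0235), and 1 rose, Vip (0.21, adjusted p = 0.00552). The share over all genes was again 3.74%. Values of these other genes under the alternative settings are not given here.

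Between mice of the same group, many pairs of layer 6 markers varied together, while the 33 as a whole did not share 1 direction. Because the striatal markers split the libraries, this was measured on deviations from group means in 41 of the 42 libraries with low striatal markers, over 11 groups, the 12th having 1 such library. The olfactory bulb mean still ran from -2.38 to 3.24 in these libraries, and its part in the correlations was not tested. Of 528 pairs of members, 76 had a positive and 10 a negative Spearman correlation with an adjusted permutation p under 0.05 (two-sided, 20000 permutations within groups). Over all 528 pairs 284 were above 0, with a median rho of 0.06; pairs of other genes were not measured. Of the 66 pairs within layer 6, 57 were above 0, 31 passed as positive and 0 as negative (median rho 0.50). Of 108 pairs between layers 5 and 6, 27 passed as positive and 0 as negative (median 0.26). Of 36 pairs within layer 5, 5 passed as positive and 1 as negative (median 0.13). Of 28 pairs within the upper layers, 4 passed as positive (median 0.28). Of 96 pairs between the upper layers and layer 6, 6 passed as negative and 3 as positive (median -0.23). The 6 pairs of middle-layer genes lay between -0.14 and 0.08.

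The strongest pair was Tbr1, a T-box factor that specifies layer 6 identity, with Rprm, a layer 6 gene for a regulator of the cell cycle (rho = 0.87, Pearson's r = 0.87, permutation p = 5e-05 and adjusted p = 0.00203 for both). The value 5e-05 is the smallest that these permutations can give. Without the 2 libraries farthest from the median of Tbr1, r was 0.87. Tbr1 and Tle4 had a rho of 0.86 (r = 0.81, without 2 libraries 0.81), and Cplx3 and Sulf1, another endosulfatase gene, had 0.85 (r = 0.84, without 2 libraries 0.80). Syt6 and Nxph4 had 0.81, and Fezf2, a zinc finger factor that specifies neurons projecting below the cortex, had 0.78 with Tbr1. Syt6 and Nxph4 both rose with the olfactory bulb mean (0.36 and 0.38 log2 per unit), and Fezf2 and Tbr1 both fell with it (-0.09 and -0.05). The strongest negative pair was Rasgrf2 with Pcp4 (rho = -0.70, r = -0.77, without 2 libraries -0.68; adjusted p = 0.00203 and 0.00459). Otof was negative with Sulf1 (-0.67), Nr4a2 (-0.63) and Nxph4 (-0.63), and Lamp5 with Bcl11b (-0.64). Not every pair followed the layer groups of the list. Mef2c, listed as upper-layer, and Foxp1, listed as layer 6, had a rho of 0.77. Crym and Deptor, both listed as layer 5, had -0.62.

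**Figure D4:**
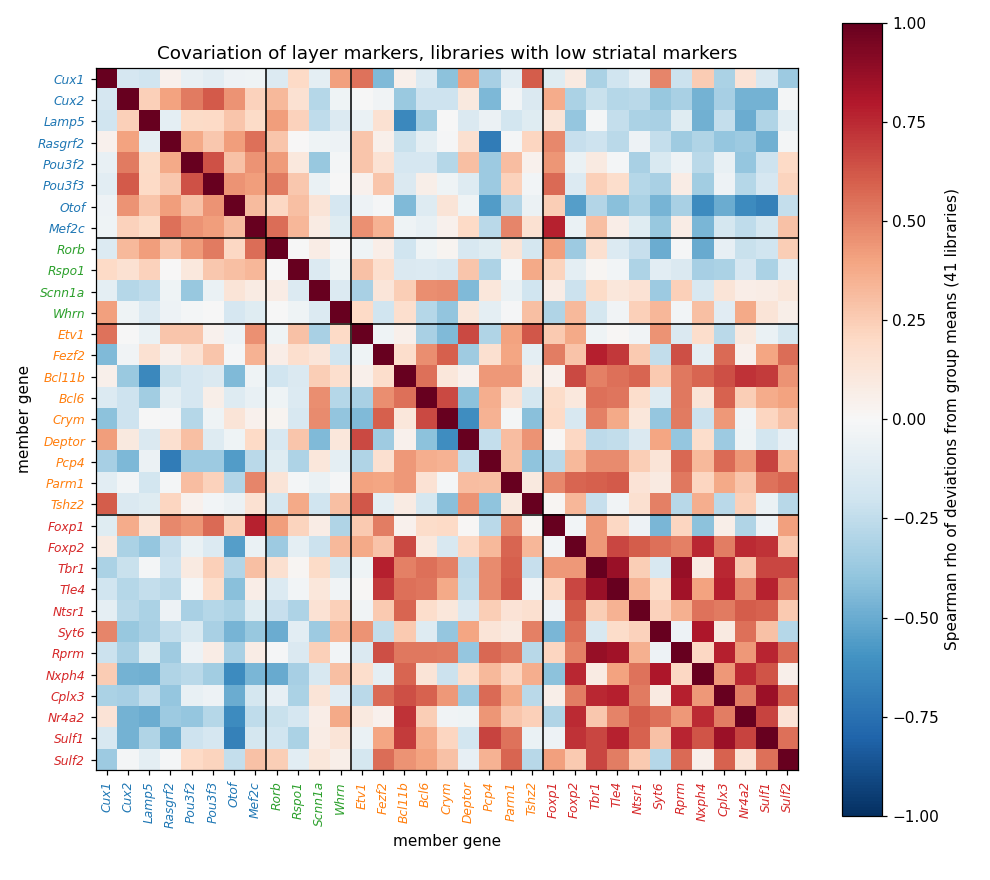
Spearman rho (colour scale) between the 33 markers over 41 libraries with low striatal markers, computed on deviations from group means; black lines separate upper, middle, layer 5 and layer 6 genes. The layer 6 block is mostly red (median 0.50) and the upper-layer against layer 6 block mostly blue (median -0.23).

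Striatal and olfactory bulb markers each went with a set of the members. No member had a called slope for both, but several came close to it. With the striatal mean as a term beside the 12 groups, 8 of 33 members had a called slope, 7 higher and 1 lower, where 4.87% of all genes had one. The 7 were Foxp2 (0.49 log2 per unit of the mean), Nr4a2 (0.44), Sulf1 (0.31), Cplx3 (0.29), Bcl11b (0.22), Tle4 (0.18) and Pcp4 (0.10), and Lamp5 had -0.10. Foxp2 ran from 471 to 931 in the 15 libraries with striatal markers and from 151 to 506 in the other 42, with medians of 586 and 318. Nr4a2 had medians of 1018 and 549, and Cux1 of 2727 and 2745. With the olfactory bulb mean as a further term, 13 of 33 members had a called slope for it, 6 higher and 7 lower, where 9.62% of all genes had one. Syt6 (0.36, adjusted p = 3.32e-17) and Nxph4 (0.38, adjusted p = 7.49e-06) had the largest, followed by Tshz2 (0.08), Deptor (0.06), Etv1 (0.05) and Cux1 (0.04). The lower ones were Fezf2, Foxp1, Rorb, Tbr1, Cux2, Sulf2 and Pou3f3, between -0.09 and -0.03. Of these 13, Nxph4 (0.39, adjusted p = 0.0599), Tbr1 (0.09, 0.0568) and Cux2 (-0.08, 0.0545) lay just short of a called striatal slope. Nr4a2 lay just short of a called olfactory bulb slope (0.12, adjusted p = 0.0662). Foxp2, Bcl11b and Pcp4 are also expressed by striatal neurons.

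**Figure D5:**
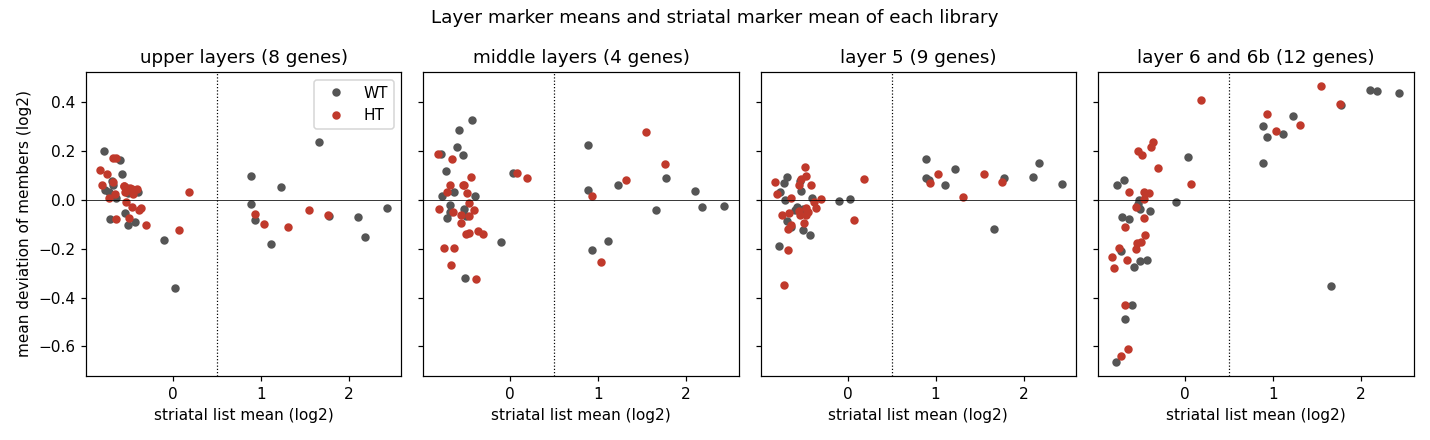
Mean log2 deviation of the members of each layer group (vertical axis) against the mean log2 deviation of the tested striatal genes (horizontal axis). Each dot is 1 of 57 libraries (grey WT, red HT) and the dotted line at 0.5 separates the 15 libraries from the 42. On the right the layer 6 means lie between 0.15 and 0.47, except WT vehicle female 3 at -0.35.

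The markers that did not pass in any comparison were the larger number, 25 of 33. Of the upper layers they were Cux1 and the homeobox gene Cux2, Lamp5, Rasgrf2, Pou3f3 and its relative Pou3f2; of the middle layers Rorb, Rspo1 and Scnn1a. In layer 5 they were the ETS factor Etv1, Fezf2, the repressor Bcl6, Deptor, an inhibitor of mTOR signalling, Parm1 and the zinc finger gene Tshz2. In layer 6 they were Foxp1, Foxp2, Tbr1, Tle4, Syt6, Rprm, Nxph4, Cplx3, Nr4a2 and Sulf1. The 95% interval of the genotype difference over all treatments, from WT to HT, was -0.10 to -0.005 for Cux1, -0.056 to 0.12 for Cux2, -0.024 to 0.16 for Tbr1, -0.022 to 0.24 for Fezf2 and -0.49 to 0.35 for Nxph4.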

How the data were processed

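Libraries of 57 prefrontal cortex samples were made from polyadenylated RNA by a kit that keeps the strand, per the labels' protocols. The authors deposited 1 signal value per gene and library, a normalized estimated count; the submitters' processing notes name Salmon 0.11.2, R 3.6.0, DESeq2 1.19.11 and GRCm38. No annotation release or filter is named in the labels. The values are not whole, and only 16.4 to 52.4% of low values in a library lay within 0.05 of a whole multiple of the commonest low value, so reads could not be recovered and depth is unknown. No pair of libraries was identical. Symbols were found for 51285 of 51456 identifiers.

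Differences were tested with limma 3.58.1 (R 4.3.3; trend and robust moderation) on log2(value + 1), which understates changes of low genes, for 16659 genes with a mean of at least 10. All 57 libraries entered 1 fit of the 12 groups. P-values were adjusted by Benjamini-Hochberg over all genes tested and called under 0.05. Differences over both sexes are means of the female and male differences. The fit was tested on simulated data. In the text, ± after a log2 difference is the SE and after a mean the SD over libraries. Gene positions are from GENCODE vM21, counted from 1. All 33 members are named; those called, and the member of smallest p of each layer in the 3 main comparisons, have full values, and of other lists at most 4 called genes. Chosen outside this rule, with their values known, were Nxph4, Syt6, Foxp2 and Nr4a2, the pairs with the strongest correlations, and the genes whose intervals close the text. The members and lists were chosen with earlier results of these data known. Alternatives were 2 pseudocounts, 2 filters, 2 scalings (the trimmed mean of M values, TMM, and the median of ratios), no robust moderation, replicate numbers as a block, terms for striatal markers and transcript length, only the groups compared, and each library left out. Fits without the 15 libraries of high striatal level, with an olfactory bulb term and with a term of other layer 6 genes were added after the data were seen.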

Additional observations from a re-analysis of the deposited data

Results flagged for a closer look

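In 18 of 198 combinations of a member and an arm of genotype and drug, 1 library lay apart from the others of its arm by Dixon's criterion, which chance alone flags in about 1 of 20. Relative to its level the widest gap was that of Nxph4, at 15.9 in WT lithium male 1 where the next library had 62.5, and at 52.4 in HT fluoxetine male 3 where the next had 95.7. WT lithium male 1 was also lowest of its arm for Sulf1 (467) and Sulf2 (4391). WT vehicle female 1 was lowest for Tbr1 (2429.8) and Crym (1709.8) and highest for Tshz2 (1326). HT vehicle male 1 was lowest for Pcp4 (3734), Parm1 (1423) and Sulf2 (3826), and HT vehicle male 2 for Tshz2 (688). WT vehicle male 2, the library with the steepest trend with transcript length, was lowest for Rasgrf2 (3024). In the HT lithium arm, female 5 was lowest for Crym (1629) and highest for Deptor (1486), female 2 was highest for Otof (1854) and female 1 was lowest for Etv1 (2032). HT fluoxetine male 3 was also lowest for Whrn (709), and WT fluoxetine male 2 for Rprm (1012). By limma over all libraries, no member passed the test of whether a drug's effect differed between the genotypes or the genotype's effect between the sexes.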

How the results depend on the processing

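The number of the 33 markers called moved with the setting, and no named value changed its sign. The genotype comparison over all treatments had 4 members called, 7 with the mean of other layer 6 genes as a term and 5 with the length term. It had 1 without the 15 libraries of high striatal level. Under vehicle the 2 became 1 with no filter on low values and 0 with only the groups compared, without those 15 libraries or with striatal and olfactory bulb terms. Under fluoxetine the 0 became 1 with the striatal term, both terms, the layer 6 term or only the groups compared. Under lithium the 1 became 0 without the 15 libraries and 2 with the layer 6 term. For fluoxetine over both genotypes the 2 became 3 with the striatal term. They became 1 with no filter, with the length term, without the 15 libraries or with only the groups compared. For lithium over both genotypes the 3 became 5 with the striatal term, 7 with both terms, 0 with the length term and 1 without the 15 libraries. In WT the 1 under fluoxetine became 2 with the striatal term or both terms, and 0 with no filter, TMM scaling, the length term, without the 15 libraries or only the groups compared. In WT the 3 under lithium became 8 with the striatal term, 5 with both terms and 2 with the layer 6 term. They became 1 without the 15 libraries, and 0 with no filter, the length term or only the groups compared. In HT the 0 under fluoxetine became 3 with only the groups compared, and the 0 under lithium became 1 with both terms. For genotype by sex the 0 became 1 without the 15 libraries or with the layer 6 term. Fits without the 15 libraries have fewer samples; the cause of the other shifts was not tested.

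With 1 library left out in turn, the members called ran from 0 to 4 for genotype under vehicle, 0 to 1 for genotype under lithium, 0 to 1 for fluoxetine in WT, 0 to 4 for lithium in WT, 1 to 8 for fluoxetine over both genotypes, 3 to 5 for lithium over both genotypes and 0 to 3 for genotype by sex. Pcp4 in the genotype comparison over all treatments and Ntsr1 under fluoxetine over both genotypes passed under every setting tried and without each library in turn, but Pcp4 under vehicle or lithium alone and Ntsr1 in WT alone did not.

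With the replicate number as a block, 4 members were called between the genotypes over all treatments and 3 for lithium over both genotypes, as without it, but 1 for fluoxetine over both genotypes and 0 for fluoxetine in WT, for both the title's and the library's numbers. Bcl11b was the call lost over both genotypes (adjusted p = 0.0553 and 0.0514), and Ntsr1 that lost in WT (0.0763 and 0.0596). For lithium in WT, the title's numbers lost Otof (-0.42, adjusted p = 0.0543) and added Rspo1, leaving 3, and the library's numbers added Rspo1 to make 4. No other count of members moved with the block. The numbers did not pair the libraries: same-numbered libraries of different groups had a mean correlation of -0.0077, others of 0.002, and 10 of 57 libraries correlated best with their own number. Depth is unknown for these values, so no limit from counting error can be given.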
